A study of Mus musculus with 4 samples.

Results

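The genes described here encode the machinery that transcribes nuclear genes: the RNA polymerases I, II and III (Polr1, Polr2 and Polr3 genes), Mediator (Med genes), the TBP-associated factors (Taf genes) and the general factors TFIIA, TFIIB, TFIIE, TFIIF and TFIIH together with TFII-I (Gtf2 genes). They were picked by gene symbol, leaving out Taf5l and Taf6l, which gave 96 of 21883 protein-coding genes on chromosomes 1 to 19, X and Y. This list of genes was drawn up with earlier results of these data known. Occupancy by the transcription factor Deaf1 was measured by ChIP-seq in C2C12 cells, an established mouse myoblast line. There were 2 libraries precipitated with an anti-Deaf1 antibody (Bethyl Laboratories) and 2 input libraries without antibody, all from cells grown in DMEM with serum, with no other treatment, genotype or time. The labels do not say whether the replicates were separate cultures, so their spread may be technical. They describe formaldehyde fixation and sonication but also use the word native, and this conflict was not settled. The peak lists hold no expression values, so myoblast identity was not checked.

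RNA polymerase II makes messenger RNA, polymerase I makes the large ribosomal RNA precursor, and polymerase III makes transfer RNA and other small RNAs. At a polymerase II promoter, TFIID (TBP and its associated factors) marks the start, TFIIA and TFIIB join it, and TFIIF, TFIIE and TFIIH complete the complex, with Mediator carrying signals from activators to the polymerase. Deaf1 binds DNA through a SAND domain, whose known target core is TTCG.

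A gene is called bound when a row of a peak list comes within 1 kb (kilobase) of the start or the end of its annotated span. The authors deposited a list of peaks for each Deaf1 library, 1860 in replicate 1 and 3126 in replicate 2, and a combined list of 1550 regions found in both. The files give no read totals. The pileup, meaning how many ChIP fragments covered a summit, was recovered from the deposited values. Its median over all peaks was 22 in replicate 1 and 23 in replicate 2. The lowest background was 1.80 fragments in replicate 1 and 2.09 in replicate 2. Ranges in parentheses after a pileup are 95% exact Poisson intervals, which cover counting error only.

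The promoters of 6 bound genes are printed first, 1 for each family, to show the letters around start sites at which Deaf1 summits were found. Each is the bound gene of its family with the largest mean fold enrichment among those with an entry in the RefSeq promoter table (GRCm38.p6). Polr2k and Taf7 had larger values in their families and no entry. Each stretch runs 5′ to 3′ along the gene, from 150 bases before the annotated start to 30 bases from it on. Capitals mark TTCG and TTCCGG on either strand (so also CGAA and CCGGAA). Their places are chr2:129100846-129101025 (+) for Polr1b, chr9:71485954-71486133 (-) for Polr2m, chr10:84622148-84622327 (+) for Polr3b, chrX:101273941-101274120 (+) for Med12, chr1:183388835-183389014 (+) for Taf1a and chr5:124578998-124579177 (+) for Gtf2h3.
Polr1b: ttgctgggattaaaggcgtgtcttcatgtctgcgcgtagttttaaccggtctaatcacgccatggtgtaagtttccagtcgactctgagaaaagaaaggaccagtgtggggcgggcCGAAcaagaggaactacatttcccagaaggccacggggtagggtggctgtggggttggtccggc
Polr2m: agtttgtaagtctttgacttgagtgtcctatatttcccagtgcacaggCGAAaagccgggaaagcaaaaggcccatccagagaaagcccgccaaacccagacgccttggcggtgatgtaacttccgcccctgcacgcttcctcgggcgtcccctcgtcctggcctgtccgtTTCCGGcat
Polr3b: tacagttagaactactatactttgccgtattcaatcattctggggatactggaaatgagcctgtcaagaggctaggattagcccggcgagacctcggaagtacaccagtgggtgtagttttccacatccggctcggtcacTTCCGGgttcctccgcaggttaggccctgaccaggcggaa
Med12: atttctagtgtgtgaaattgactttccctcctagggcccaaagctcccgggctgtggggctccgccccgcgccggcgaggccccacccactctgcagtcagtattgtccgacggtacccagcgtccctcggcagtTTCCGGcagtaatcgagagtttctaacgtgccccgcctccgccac
Taf1a: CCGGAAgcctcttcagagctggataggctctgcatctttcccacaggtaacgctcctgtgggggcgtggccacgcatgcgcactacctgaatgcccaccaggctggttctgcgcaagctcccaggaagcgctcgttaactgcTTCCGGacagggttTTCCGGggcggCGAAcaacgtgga
Gtf2h3: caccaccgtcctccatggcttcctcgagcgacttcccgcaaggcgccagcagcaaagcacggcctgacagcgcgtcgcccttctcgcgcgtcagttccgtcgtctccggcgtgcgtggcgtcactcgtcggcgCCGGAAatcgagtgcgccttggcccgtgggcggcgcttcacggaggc

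In these 6 stretches TTCG occurred once each in Polr1b, Polr2m and Taf1a and was absent from Polr3b, Med12 and Gtf2h3. TTCCGG occurred in 5 of the 6, all but Polr1b, and 3 times in Taf1a. In Polr3b it began 10 bases before the start, with the summits 3 bp before the start in replicate 1 and 9 bp after it in replicate 2. In Gtf2h3 it began 17 bases before the start, with summits 45 and 42 bp before it. Med12 had it 15 bases before the start, with its summits 40 and 33 bp past the start.

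Of the 96 genes, 22 (22.9%) had a region of the combined list at an end, against 6.92% of the 21787 other protein-coding genes. In the list of replicate 1 the count was 23 (24%), against 7.45% of other genes, and in that of replicate 2 it was 33 (34.4%), against 11.1%. All 22 genes of the combined list were bound in both single lists, which is 95.7% of the replicate 1 genes and 66.7% of the replicate 2 genes. Of other genes, 1523 were bound in both single lists, 93.8% of those in replicate 1 and 62.8% of those in replicate 2. The remaining 62 genes had no peak at an end in either replicate. No test was made of these shares, since the genes were chosen as a list, with earlier results of these data known. There is also a single condition.

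**Figure D1:**
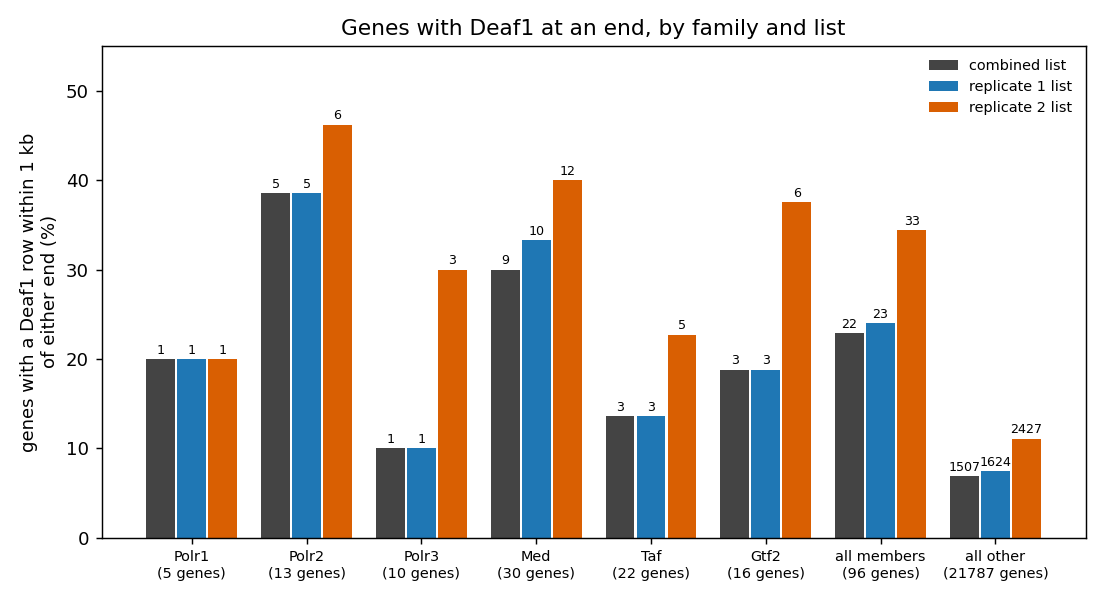
Share of genes (%, vertical axis) with a Deaf1 row within 1 kb of either end, for each family, all 96 members and all 21787 other protein-coding genes; the bars stand for the combined list, replicate 1 and replicate 2, with the number of genes above each bar. In the combined list the share runs from 10% (Polr3) to 38.5% (Polr2), and other genes stand at 6.92%.

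By family, the combined list held 5 of 13 Polr2 genes (38.5%), 9 of 30 Med genes (30%), 1 of 5 Polr1 genes (20%), 3 of 16 Gtf2 genes (18.8%), 3 of 22 Taf genes (13.6%) and 1 of 10 Polr3 genes (10%). Families this small change by several percentage points or more with 1 gene. In the combined list the Polr1 and Polr3 shares each rest on 1 gene. The Polr3 share was near that of other genes in the combined list, while replicate 2 alone had 3 of 10 (30%). The Gtf2 count likewise went from 3 to 6 with replicate 2 alone, and the Taf count from 3 to 5. The share of other genes also rose, from 6.92% in the combined list to 11.1% in replicate 2.

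Among the polymerase genes, Polr2k, a small subunit common to all 3 nuclear polymerases, had the largest mean fold. Its region on chromosome 15 from 36173802 to 36174174 carried 57 fragments in replicate 1 (43.2 to 73.9) and 63 in replicate 2 (48.4 to 80.6), with a fold enrichment of 12.8 and 16.1, a mean of 14.5 ± 2.31 (SD, n = 2). Both summits lay within 7 bp of the nearer gene end. Polr2h, another of the 5 common subunits, had folds of 7.85 and 8.93. Its 3 fellow common subunits, Polr2e, Polr2f and Polr2l, had no peak at an end in either list.

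Of the 7 genes for subunits found only in polymerase II, the combined list held Polr2j and Polr2g. Polr2j, a subunit of the assembly core, had pileups of 24 and 29 fragments in replicates 1 and 2, with folds of 8.92 and 9.71. Polr2g, part of the stalk, had 24 and 23 fragments and folds of 8.92 and 7.77. The gene of the largest subunit, Polr2a, was bound in replicate 2 alone, with 21 fragments (13 to 32.1) and a fold of 7.12. Polr2m encodes a polymerase-associated protein that restrains initiation, and its folds were 8.81 and 11.7. Where a gene had a peak in both libraries, the counting intervals of its 2 pileups overlapped, here and at all 22 genes.

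Besides the common subunits Polr2k and Polr2h, polymerases I and III each had 1 subunit gene in the combined list. In each case it encodes the second largest, catalytic subunit. Polr1b had pileups of 21 and 28, and folds of 7.85 and 7.43. Polr3b had 26 and 38 fragments over a high local background of 5.27 and 5.80 fragments, so its folds of 4.31 and 5.73 gave the lowest mean of the 22 genes, 5.02 ± 1.01 (SD, n = 2). Polr3a, the largest subunit of polymerase III, and Polr3f were bound in replicate 2 alone, with 21 and 15 fragments. The genes of the subunits shared by polymerases I and III, Polr1c and Polr1d, had no peak at an end.

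Mediator genes gave 9 of the 22. Its head module, which contacts the polymerase, had 4 of 7 genes in the combined list (Med6, Med8, Med17 and Med20), and Med18 in replicate 2 alone. The tail, where many activators dock, had 2 of 5 (Med15 and Med23), the middle 2 of 8 (Med19 and Med31). The kinase module had 1 of its 4 Med genes (Med12). Its further genes Cdk8, Cdk19 and Ccnc have other symbols, and none was in the combined list. Med14, the scaffold that joins the modules, had none, and neither had the 5 genes Med26 to Med30 in the combined list. The module counts were read off after the genes' values were known.

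Med12, which activates the kinase of its module, had the largest mean fold of the Mediator genes. Its region on chromosome X from 101273934 to 101274381, the widest of the 22 at 448 bp, carried 39 fragments in replicate 1 (27.7 to 53.3) and 67 in replicate 2 (51.9 to 85.1). The folds were 14.3 and 14, a mean of 14.1 ± 0.218 (SD, n = 2), with a background of 1.80 in replicate 1 and 3.87 in replicate 2. Pileups thus differed more than folds.

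At Med6 it was the reverse. The pileups were close, 50 in replicate 1 (37.1 to 65.9) and 59 in replicate 2 (44.9 to 76.1), but the local background was 6.15 against 2.09 fragments. Its folds were therefore 7.13 and 19.4, the widest gap of the 22 genes, with a mean of 13.3 ± 8.69 (SD, n = 2). Med20 went the other way, with 54 and 62 fragments and folds of 15.1 and 9.26 over backgrounds of 2.64 and 5.80. Med23 had 41 and 59 fragments and folds of 7.79 and 15.4. For these 3 genes the fold cannot be ranked against the others beyond its replicate spread.

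The remaining Mediator genes had smaller peaks. Med8 had 19 and 37 fragments (folds 6.85 and 12.1), Med19 had 20 and 29 (5.78 and 9.71), and Med15 had 17 and 29 (3.99 and 7.69). Replicate 2 was higher at each of these 3. Med17, the organising subunit of the head, was closer between replicates, with folds of 8.57 and 9.39.

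Of the Taf genes, Taf7, whose product binds the TFIID subunit Taf1, had 37 and 38 fragments and folds of 13 and 12.6, a mean of 12.8 ± 0.278 (SD, n = 2). Taf12, a histone-fold subunit shared with the SAGA coactivator, had 18 and 28 fragments and folds of 6.78 and 7.43. The other 15 of the 17 TFIID genes had no region in the combined list. Taf1a belongs to SL1, the TBP complex of polymerase I, and had folds of 6.65 and 8.97. A second SL1 gene, Taf1c, had 31 fragments (21.1 to 44) and a fold of 10.4 in replicate 2, and no peak at an end in replicate 1.

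TFIIH, which opens promoter DNA and also works in DNA repair, held all 3 Gtf2 genes of the combined list: Gtf2h1, Gtf2h2 and Gtf2h3, of its 5 genes here. The region at Gtf2h3 on chromosome 5 from 124579023 to 124579197 had the largest mean fold of the 22. Folds of 17.8 and 20.1 gave a mean of 19 ± 1.58 (SD, n = 2), which ranked 60th of the 1550 regions. Its pileups of 49 in replicate 1 (36.3 to 64.8) and 61 in replicate 2 (46.7 to 78.4) were below those of Polr2k (57 and 63) and Med20 (54 and 62). The background at Gtf2h3 was 1.80 fragments in replicate 1 and 2.09 in replicate 2, the lowest value of each library. Gtf2h1 and Gtf2h2 were among the weakest, with 15 and 17 fragments in replicate 1. No gene of TFIIA, TFIIB, TFIIE, TFIIF or TFII-I was in the combined list. Replicate 2 alone added Gtf2h5, Gtf2a2 and Gtf2e1, with 19 to 21 fragments each.

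**Figure D2:**
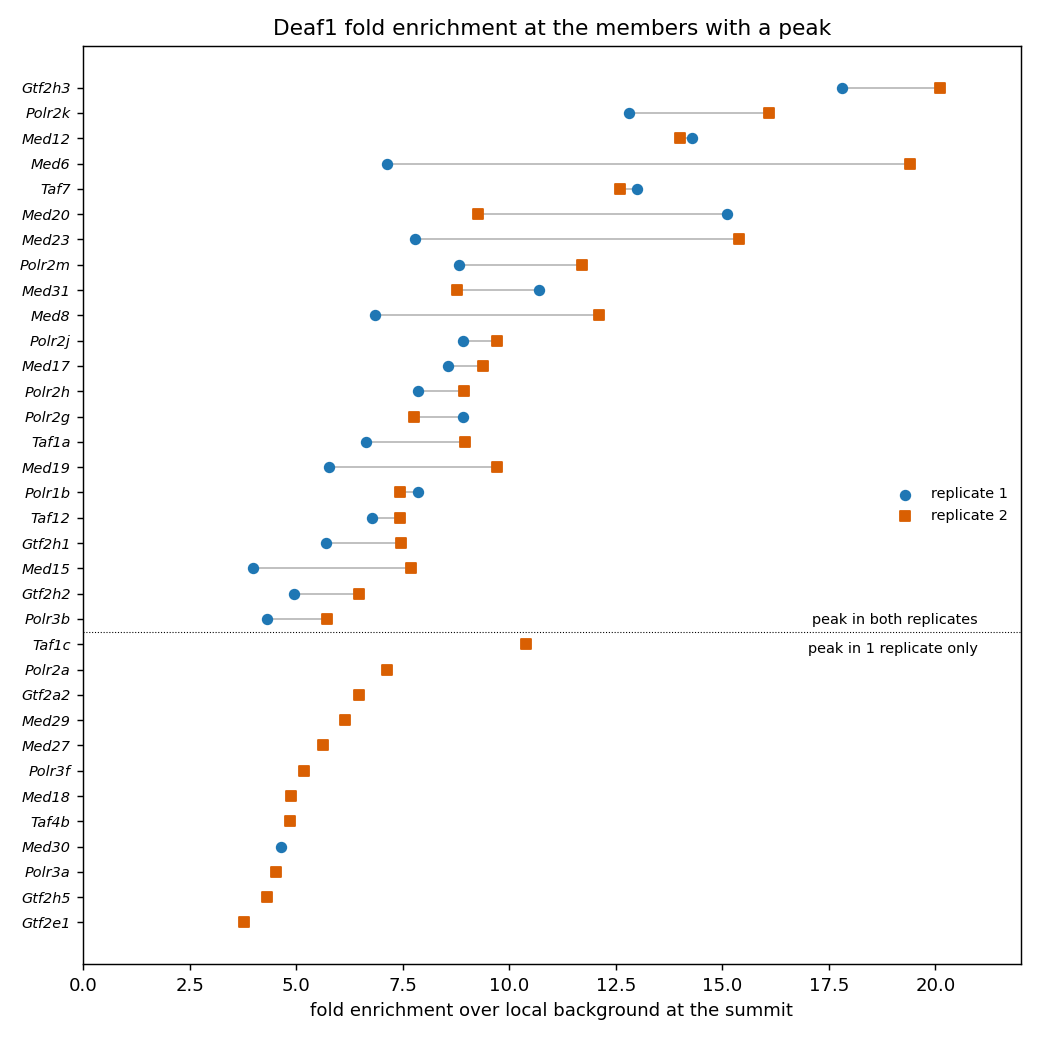
Fold enrichment over local background at the strongest summit (horizontal axis) for each of the 34 genes with a peak at an end, replicate 1 as circles and replicate 2 as squares, joined by a line where both exist. Med6 has the longest line (7.13 to 19.4), and the 12 genes below the dotted line have a peak in 1 replicate only, 11 of them in replicate 2.

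The 11 genes bound in replicate 2 alone were Med18, Med27, Med29, Polr2a, Polr3a, Polr3f, Taf1c, Taf4b, Gtf2a2, Gtf2e1 and Gtf2h5. Their pileups ran from 14 to 31 with a median of 20, against 19 to 67 with a median of 31.5 in the same library for the 22 genes bound in both. The 2 sets overlapped. Replicate 1 alone added only Med30, with 20 fragments and a fold of 4.65.

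The 22 regions were of ordinary strength for Deaf1 at gene ends. Their median fold was 7.85 in replicate 1 and 9.33 in replicate 2, beside 7.50 and 8.42 for the 1227 regions at other genes, and the median pileups were 24 and 31.5 beside 24 and 32. Median width was 167 bp, beside 190 bp at other genes, and the 22 widths ran from 112 to 448 bp. Each of the 22 came from a single peak per library, and 5.62% of regions at other genes were merged from several peaks. Fold was higher in replicate 2 at 16 of the 22 regions (72.7%), beside 64.5% at other genes, and the median ratio was 1.13 in both sets.

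The score of a combined region is a scaled irreproducible discovery rate (IDR) for the pair of libraries: 540 stands for 0.05 and 830 for 0.01. A higher score means a lower rate. It reflects how high a region ranks in both libraries as well as how closely its ranks agree. A score of at least 540 was reached by 12 of the 22 regions (54.5%), beside 42% at other genes. These were at Gtf2h3, Polr2k, Med12, Med6, Med23, Taf7, Med20, Polr2m, Taf1a, Polr2j, Med17 and Polr2h, and the first 3 had 855, 852 and 848. Counted by genes, 12.5% of the 96 had such a region and 3.09% of other genes. Gtf2h1, Gtf2h2 and Med15 had 121, the lowest score in the list.

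Summits lay close to gene ends. In replicate 2 the strongest summit was within 100 bp of an end at 21 of the 22 genes (95.5%), with a median of 20 bp, against 64.3% and 52 bp for other bound genes. In replicate 1 it was 19 of 22 (86.4%) with a median of 25 bp, against 65.2% and 50 bp. At Gtf2h1 the strongest replicate 2 peak, 14 bp from an end, was not in the combined list. The replicate 2 peak that was in the list lay 333 bp from that end. Where the promoter table gave a start and a strand (17 of the 22 genes), 15 summits of replicate 2 lay within 100 bp of an annotated start, against 66.6% of other such genes. Of the 17, 12 lay upstream of the start, beside 901 of 1222 at other bound genes. In replicate 1 it was 15 of the 17, beside 910 of 1220.

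**Figure D3:**
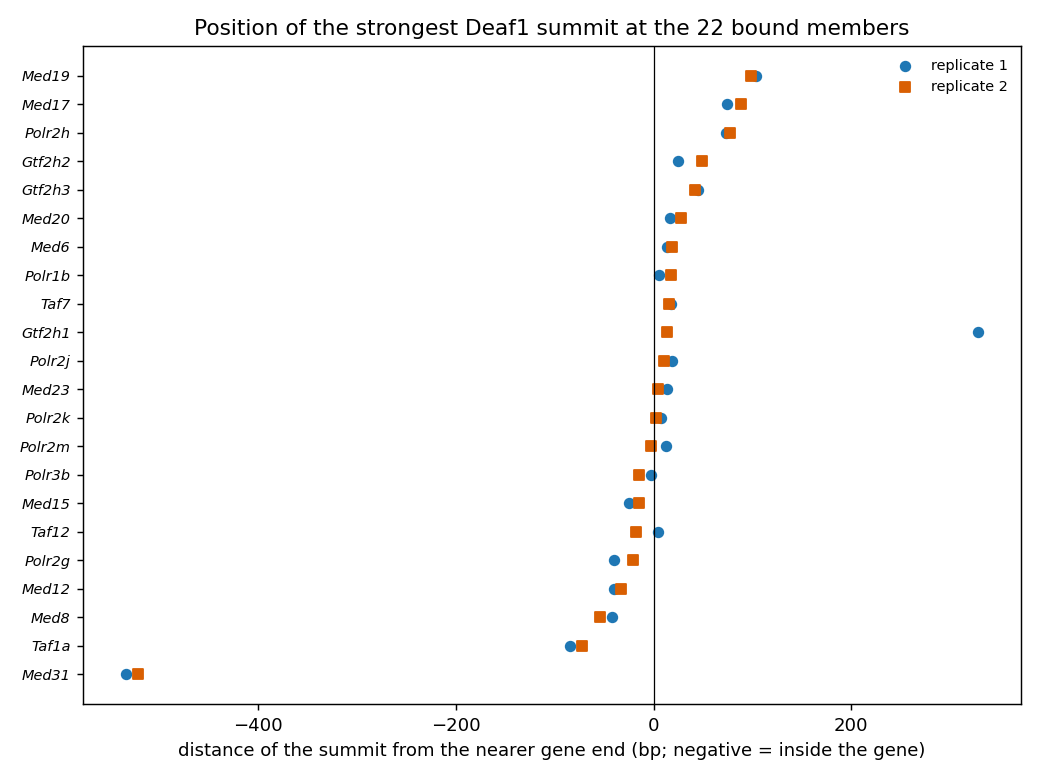
Distance in bp (horizontal axis) of the strongest summit from the nearer end of the gene, for the 22 genes of the combined list, replicate 1 as circles and replicate 2 as squares; negative values are inside the gene. Replicate 2 summits lie within 100 bp at 21 genes, Med31 lies 522 bp inside, and Gtf2h1 has its replicate 1 summit 328 bp outside.

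A pair of genes stood apart. At Med31 the summits were 534 and 522 bp inside the gene from its annotated start, and the replicate 2 summit was 68 bp from an end of 4930563E22Rik. At Gtf2h1 replicate 2 had 2 peaks: the first, 14 bp before the start with 22 fragments, had no partner in replicate 1, while the other, 333 bp before it with 27 fragments and a fold of 5.75, matched the replicate 1 peak at 328 bp (fold 5.71). Only the distal peak was in the combined list.

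The window of 1 kb decided no case closely. The gene nearest inside it in the combined list was Med31 at 462 bp, and the nearest outside was Med26 at 1692 bp. Peaks inside a gene but away from both ends were missed by the rule, and 3 genes had one close to an annotated internal start. Med10, a middle subunit, had peaks 26 and 30 bp before such a start in replicates 1 and 2, with 20 and 21 fragments and folds of 7.50 and 7.12. Taf11 and Taf1, both TFIID subunits, each had a peak in replicate 2 alone, 14 bp before and 10 bp after an internal start, with 23 fragments and a fold of 7.77 each. Med10, Taf1 and Taf11 are not counted as bound above.

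Several regions could belong to a neighbour. Of the 22, 7 were also within reach of another protein-coding gene, among them Gtf2h1 with Hps5, Gtf2h3 with Eif2b1, Med19 with Tmx2, Med20 with Bysl and Gm20517, Med31 with 4930563E22Rik, and Polr2h with Clcn2. For Gtf2h3 the replicate 2 summit was 42 bp from its own end and 25 bp from that of Eif2b1, a translation initiation factor subunit. At Polr2h it was 77 bp from its own end and 3 bp from that of Clcn2, a chloride channel gene. Giving each region only to the gene with the nearest end left 17 of the 96 (17.7%), against 5.49% of other genes, and it left only Gtf2h2 of the Gtf2 family.

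Close neighbours were more frequent around these 96 genes than elsewhere. Another protein-coding gene had its start or end within 1 kb of an end of 43 of them (44.8%), and of 24.7% of other genes. Among genes with such a neighbour, 12 of the 43 (27.9%) were bound and 15.3% of other genes. Among genes without one, 10 of 53 (18.9%) were bound and 4.18% of other genes. The share was higher than that of other genes in both strata. Whether close neighbours account for the difference between members and other genes was not tested.

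Promoter composition was also compared, over the 82 members among the 17491 genes with promoter entries (some genes have 2). A promoter is called bound here when its start is within 1 kb of a combined region. The 82 members happen to have 96 promoter entries, of which 84.4% had at least 13 CpG pairs in 300 bases, the median of all promoters, against 50.8% of other promoters. Among these CpG-rich promoters, 17 of 81 at members (21%) and 12.5% at other genes were bound. Below that median it was 5 of 15 (33.3%) and 1.26%, the former from few promoters.

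The 4-base core TTCG, on either strand and counted once where both strands share a CpG, was in 15 of the 22 bound member promoters (68.2%), 63.5% of the 74 unbound ones, and 49.1% of all promoters of this length. The 22 promoters belong to 18 genes: 17 of the 22 bound genes, and Med10 by its internal start. Among other genes it was in 70.8% of bound and 47.4% of unbound promoters. In windows of 61 bases centred on the replicate 2 summit, TTCG was in 3 of 14 at members (21.4%), 21.5% at other genes, and 11.9% of windows of unbound promoters centred 30 bases before the start.

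The 6-base word TTCCGG was searched after the printed promoters had been read, so its frequency there is no independent finding. It contains, on its other strand, the GGAA core that ETS-family factors recognise. It was in 17 of 22 bound member promoters (77.3%, 95% Wilson interval 56.6% to 89.9%) and 26 of 74 unbound ones (35.1%, 25.2% to 46.5%), and in 18.7% of all promoters. For other genes the shares were 66.7% of bound and 15% of unbound promoters. The 61-base windows could be read only where they lay inside a promoter entry, which left out 5 bound genes without an entry and the summits of Med12, Med31, Gtf2h1 and Gtf2h2. In the windows read, TTCCGG was in 11 of 14 at members (78.6%), in 56.9% at other genes and in 4.80% of windows of unbound promoters. The 3 windows read that lacked it were those of Med6, Polr1b and Polr2h. The Med10 window, at its internal start, held it 3 times, as did that of Taf12.

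**Figure D4:**
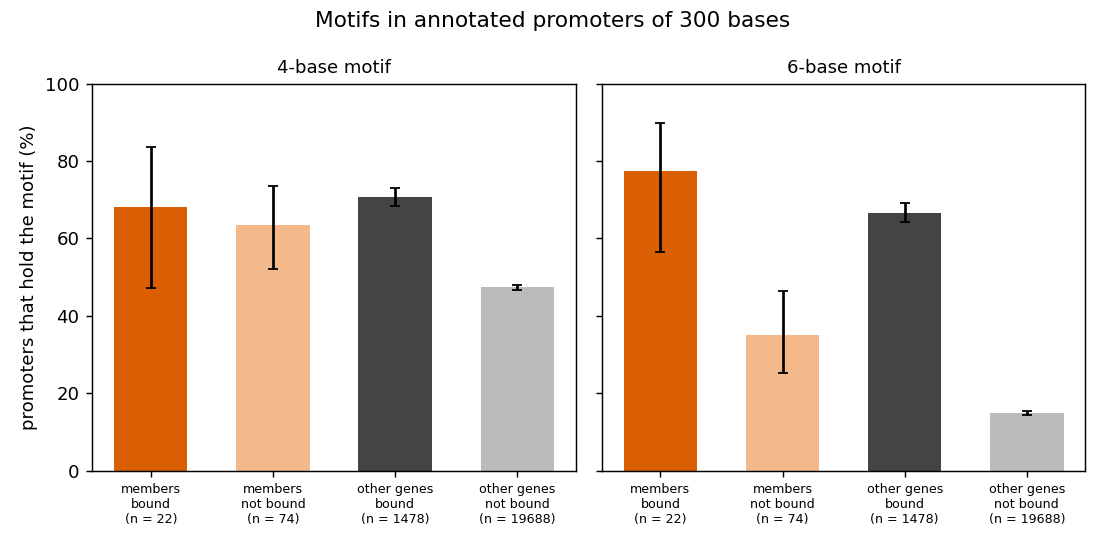
Share of annotated promoters of 300 bases (%, vertical axis) that hold the 4-base motif TTCG (left) or the 6-base motif TTCCGG (right) on either strand, for bound and unbound promoters of members and of other genes; bars are shares and lines are 95% Wilson intervals (counting error only). The 4-base motif differs little between bound and unbound members (68.2% and 63.5%), the 6-base motif more (77.3% and 35.1%).

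Read the other way, 17 of the 43 member promoters with TTCCGG were bound (39.5%) and 5 of the 53 without it (9.43%). At other genes the shares were 25.1% and 2.85%. Promoters of 1 gene can overlap and share letters, as the 2 of Taf1a do. The Wilson intervals treat each promoter as independent, so they may be too narrow. A match is a description of letters and does not show which protein was there.

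A wider list of 64 genes held initiation and elongation factors under other symbols, and was also chosen with earlier results known. It gave 21 in replicate 1 (32.8%, beside 7.45% of genes outside the 96) and 25 in replicate 2 (39.1%, beside 11.1%). The combined list held 18 (28.1%, beside the 6.92% of genes outside the 96). TBP, the protein at the centre of TFIID and SL1, was among them: Tbp had 41 and 49 fragments and folds of 7.79 and 16.2, a mean of 12 ± 5.94 (SD, n = 2). From TFIIH came Cdk7, its kinase, and Ercc3, a helicase. Polymerase III initiation gave Brf1, Brf2, Bdp1, Snapc4 and the repressor Maf1, and polymerase I gave Rrn3. The elongation genes were Supt4a, Supt16, Cdk9, Ccnt1, Ccnk, Nelfa, Nelfe and Ctr9, and the last was Gpn2. Not in the combined list were Ercc2, Ccnh and Mnat1 of TFIIH and Ubtf of polymerase I. Gtf3a, the Gtf3c genes, Snapc1, Snapc2, Snapc3 and Snapc5 were not in it either. Supt4a had the largest mean fold of the 18, 15.9 ± 1.31 (SD, n = 2), and Bdp1 had 13.2 ± 2.01 (SD, n = 2). At Maf1, Nelfe and Ccnk the summit was nearer to a neighbour.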

How the data were processed

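Deaf1 ChIP-seq peak lists of 2 libraries were analysed, and input libraries had no file of their own here. Per the submitters' processing notes, BWA 0.7.17-r1198, MACS2 2.1.2 and the build mm10 were used, with no settings given. In each list the authors deposited, per peak, the fold enrichment (a ratio) over local background, the −log10 p and −log10 q, and the summit position. The combined list has the layout of the IDR program, and its deposited score was given by the authors for both libraries together. Its 6 columns of values for single libraries were not used. Groups and replicate numbers came from the titles.

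Pileup and background were recovered as the whole number that fits fold = (pileup + 1)/(background + 1) and the Poisson p, missing the deposited −log10 p by no more than 5.1e-05. This was tested on simulated data, as was the call of bound genes. Genes were taken from RefSeq GRCm38.p6 (1 span per gene, no exons), which is the build mm10. A row counted for a gene if any base was within 1 kb of an end. The summit of a combined region is that of its strongest replicate 2 peak. The named genes were every bound member, every member with a peak in 1 list only, the members next to the limit, and the bound genes of the wider list. Some unbound genes of the same complexes were also named. No test was run, since the list and its alternatives allow a description only. Members and lists were chosen with earlier results of these data known. Python 3.11.15, pandas 2.3.3, numpy 2.4.6 and scipy 1.17.1 were used.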

Additional observations from a re-analysis of the deposited data

How the results depend on the processing

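The score of the combined list changed the counts most. The members bound numbered 22 with all regions, 12 with a minimum score of 540 and 3 with 830 (3.12%, against 0.381% of other genes). At 540 there were 0 Polr1, 0 Polr3, 5 Med and 1 Gtf2 genes. At 830 there were 0 Polr1, 1 Polr2, 0 Polr3, 1 Med, 0 Taf and 1 Gtf2 genes, and 2 of the wider list. Counting annotated starts only gave 3 of 10 Polr2 genes with an entry, and counting the nearest gene only gave 1 Gtf2 gene. With 1 replicate's list in place of the combined list, members bound ran from 23 to 33, Polr3 genes from 1 to 3, Taf genes from 3 to 5 and Gtf2 genes from 3 to 6. The share of other genes bound ran from 7.45% to 11.1%. In each of these, the higher value is replicate 2 alone. Requiring TTCG 2 times gave 36.4% of bound and 40.5% of unbound member promoters (19.2% of all promoters), and TTCGG gave 31.8% and 37.8% (22%), so bound promoters were no longer above unbound ones. TTCCGG was added after seeing the data. The other windows, the summit rule and the gene span kept the counts of all members, of each family and of the wider list within 1.5 times, as did −log10 q of at least 5 for all members in each replicate. Some counts for single complexes or modules, which hold few genes, moved by more. At a median pileup of 22 or 23, counting error limits single peaks. No paired analysis was possible because the inputs have no values here.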
